A study of Homo sapiens with 8 samples.

Results

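Succinylation of histone H3 at lysine 23 (H3K23su) and acetylation at lysine 27 (H3K27ac) were followed at the 7 genes SLC19A1, FPGS, GGH, SHMT1, MTHFD1, SHMT2 and MTHFD2, which import, retain or interconvert folates. The genes were chosen by name for their roles, as 7 of the 20163 protein-coding genes annotated. For each gene, peaks were counted within 2 kb of the transcription start site (TSS), in the rest of the gene body, and within 50 kb on either side of the gene. The data are 8 CUT&Tag libraries of HCT15, an established human colorectal cancer line, in which an antibody directs a transposase to chromatin carrying the mark. Each mark was profiled in 2 libraries of parental cells (HCT15-Pa, labelled as treated with DMSO, the solvent) and 2 of 5-fluorouracil-resistant cells (HCT15-FR, labelled as treated with 20 μg/mL 5-FU). Per the study's methods, resistant cells were kept in 5-FU and then without it for 3 days before experiments. Both lines share the HCT15 background, the resistant arm is a single line, and nothing states that the libraries of a group came from separate cultures, so p-values measure the spread between libraries, which may be technical.

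Folates carry single carbon units. The reduced folate carrier SLC19A1 brings them into the cell, FPGS adds the glutamate tail that keeps them there, and GGH removes that tail. SHMT1 in the cytosol and SHMT2 in mitochondria move a carbon from serine to tetrahydrofolate, and MTHFD1 and MTHFD2 interconvert the carbon-loaded forms that feed purine and thymidylate synthesis. Thymidylate synthase, the enzyme that 5-FU blocks, uses one of these folates, and reduced folate strengthens that block, which is why the pathway is of interest in colorectal cancer.

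All 7 genes carried both marks at the TSS in all 8 libraries. A TSS peak in all 4 libraries of the mark was found in 54.7% of all genes for H3K23su and in 59% for H3K27ac, and one in all 8 libraries in 53.9%. No member had a TSS peak in only 1 line. Over all genes, 1.86% had an H3K23su peak in both HCT15-FR and neither HCT15-Pa library and 1.72% the reverse, and for H3K27ac these shares were 1.42% and 2.19%. At SHMT2 the TSS peak of both marks was narrower in both HCT15-FR libraries but had a higher score. The SHMT1 peak was wider in HCT15-FR in both marks, and the GGH peak had a lower score in both marks. The body of MTHFD2 and the surroundings of SLC19A1 were covered more widely in HCT15-FR. Wider cover in HCT15-FR in both marks was common, found at the TSS in 19% of genes, in the body in 28.7% and in the surroundings in 34.8%. These shares are of genes covered there in all 8 libraries. With 2 libraries against 2, the two-sided exact permutation test used for each difference cannot give a p below 0.333, so no difference between the lines could pass 0.05, and the plots and counts describe whether the libraries overlapped.

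The lists held between 65364 and 76676 peaks. Bases under peaks came to 33 to 33.5 Mb in HCT15-Pa and 39.4 to 40 Mb in HCT15-FR for H3K23su, and to 38.8 to 39.5 Mb and 46.3 to 46.6 Mb for H3K27ac, a ratio of 1.19 in each mark. Against this wider cover, the median over genes of the FR to Pa ratio at the TSS was 1.14 for H3K23su and 1.04 for H3K27ac. The peak lists hold no read counts, so the depth behind each peak is unknown from them, and a missing peak means that none was called. Of 10 epithelial marker genes, 7 had an H3K23su and 8 an H3K27ac TSS peak in all 4 libraries. CDX1 had a peak of both marks in both HCT15-FR and neither HCT15-Pa library. KRT20 had no peak of either mark in HCT15-Pa, and CDX2 had an H3K23su peak in HCT15-FR replicate 2 only. Of 7 markers of immune, stromal or endothelial cells, 0 had an H3K23su and 1, COL1A1, had an H3K27ac peak in all 4, and PTPRC, CD3E, COL1A2 and PDGFRB had none in any library. CD68, COL1A1 and CDH5 had H3K23su peaks in some libraries, covering up to 1029, 853 and 239 bp. CD68 and CDH5 also had H3K27ac peaks in some libraries. PECAM1, planned as a further marker, has no values here.

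SHMT2, the mitochondrial serine hydroxymethyltransferase, lies on the plus strand at chr12:57623356-57628718 (hg19), with the TSS of its main transcript at base 57623494. Peaks ran from just upstream of the TSS into the first part of the gene.

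Within 2 kb of the SHMT2 TSS, H3K23su peaks covered 1313 and 1224 bp in the HCT15-Pa libraries and 993 and 903 bp in the HCT15-FR libraries. H3K27ac peaks covered 1382 and 1157 bp in HCT15-Pa and 957 and 1056 bp in HCT15-FR. Both resistant libraries were below both parental libraries in each mark. The mean fell to 0.747 of the parental mean for H3K23su (exact permutation p = 0.333, n = 2 per line) and to 0.793 for H3K27ac (exact permutation p = 0.333, n = 2 per line). Covered TSS length was lower in both HCT15-FR libraries in 6.34% of genes with a TSS peak in all 4 libraries for H3K23su and in 10.9% for H3K27ac. The SHMT2 difference itself, -320.5 bp and -263 bp, was undercut by 2.42% and 5.45% of these genes. Within 1 kb of the TSS the differences were -96.5 bp and -148.5 bp, and the lines were still apart. A lower length in both marks was found in 1.55% of genes with a TSS peak in all 8 libraries.

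The narrowing was on the downstream side. The H3K23su peak ended 1251 and 1197 bp past the TSS in HCT15-Pa and 910 and 814 bp past it in HCT15-FR. The H3K27ac peak ended 1166 and 1063 bp past the TSS in HCT15-Pa and 837 and 896 bp past it in HCT15-FR. The upstream edge lay at -61 and -26 bp from the TSS in HCT15-Pa and at -82 and -88 bp in HCT15-FR for H3K23su, so it did not draw back. For H3K27ac the upstream edges of the lines overlapped.

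The peak score, read as the −log10 p that MACS2 gives each peak, went the other way. For H3K23su it was 4.9 in each HCT15-Pa library and 5.43 and 6.83 in the HCT15-FR libraries. For H3K27ac it was 9.58 and 8.06 in HCT15-Pa and 15.1 and 13.7 in HCT15-FR, a 1.64-fold higher mean. As a percentile of all peaks of its own library, which takes out overall differences in score between lists, the score was at 66.8, 66.7, 69.4 and 85.2 for H3K23su and at 90.7, 85.7, 95.6 and 94.2 for H3K27ac, in the order HCT15-Pa 1, HCT15-Pa 2, HCT15-FR 1 and HCT15-FR 2. Score percentile was higher in both HCT15-FR libraries in 28.3% of genes for H3K23su and in 22.1% for H3K27ac, and in both marks in 8.33%. A lower covered length together with a higher percentile, in both marks, was found in 13 of the 10859 genes with a TSS peak in all 8 libraries, or 0.12%, and SHMT2 was 1 of them. This combined count was made after the values of SHMT2 had been seen. The mean H3K23su percentile was 10.5 points higher in HCT15-FR, but 2.65 points higher without HCT15-FR replicate 2 and 18.4 without HCT15-FR replicate 1.

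**Figure D1:**
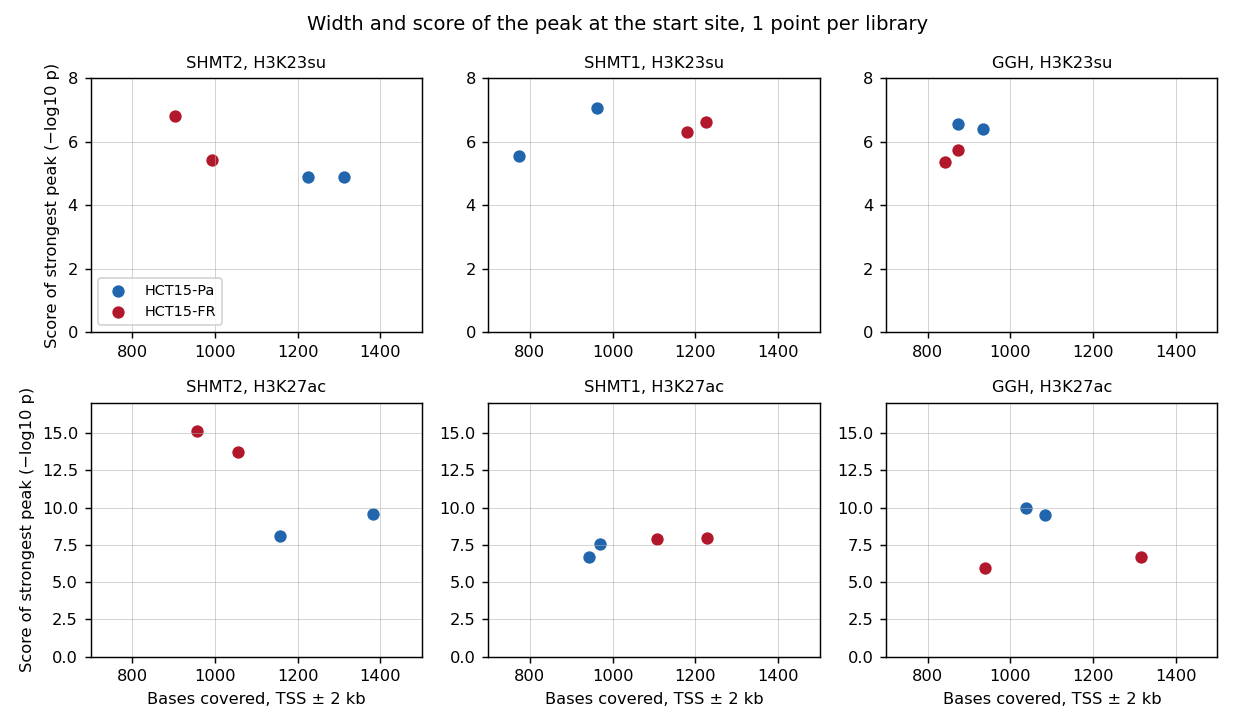
Score of the strongest peak (−log10 p) against bases covered within 2 kb of the TSS for SHMT2, SHMT1 and GGH, 1 point per library, with H3K23su above and H3K27ac below. SHMT2 points of HCT15-FR (red) lie up and to the left of HCT15-Pa (blue), SHMT1 points lie to the right, and GGH points lie lower.

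No peak was called in the rest of the short SHMT2 gene body in any library. Of the regions within 50 kb, formed by merging the peaks of the 4 libraries of a mark, 1 H3K23su region was called in both HCT15-FR and neither HCT15-Pa library (FR-only) and 1 in both HCT15-Pa and neither HCT15-FR library (Pa-only). The FR-only region, chr12:57628894-57629233, lay 5570 bp downstream of the TSS in an untranslated exon of NDUFA4L2, with scores of 5.22 and 4.81. The Pa-only region, chr12:57604668-57605533, lay upstream, at -18393 bp from the TSS, at an exon-intron boundary of LRP1, a lipoprotein receptor gene, with scores of 4.08 and 4.41. It overlapped a Pa-only H3K27ac region, chr12:57604967-57605329, with scores of 3.27 and 5.1. For H3K27ac, 1 FR-only region, chr12:57611547-57611831, in an intron of NXPH4 and 1 further Pa-only region, chr12:57634293-57634578, at NDUFA4L2 were called near SHMT2. The central 300 bases of the H3K23su region, chr12:57604951-57605250 on the plus strand, are shown because the call was lost in both marks. None of the motifs searched was found in them.
LRP1 region: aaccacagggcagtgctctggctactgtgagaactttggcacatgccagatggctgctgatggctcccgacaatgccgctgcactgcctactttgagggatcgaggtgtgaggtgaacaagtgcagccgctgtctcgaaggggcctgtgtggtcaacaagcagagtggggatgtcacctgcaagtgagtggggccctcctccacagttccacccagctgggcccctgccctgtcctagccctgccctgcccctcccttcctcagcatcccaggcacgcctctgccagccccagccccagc

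H3K27ac cover of the SHMT2 surroundings was 2674 and 3389 bp in HCT15-Pa and 3604 and 4173 bp in HCT15-FR, a 1.28-fold higher mean (exact permutation p = 0.333, n = 2 per line). The H3K23su cover of the same windows overlapped between the lines, with 2477 and 2200 bp in HCT15-Pa and 1974 and 2490 bp in HCT15-FR. Over the 8 libraries, the genes whose covered TSS lengths were most like those of SHMT2 by Euclidean distance were CFL2, at 249.1 bp, NDUFAF4, at 307.9 bp, and DECR1, at 311.0 bp.

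MTHFD2, the mitochondrial dehydrogenase and cyclohydrolase of the pathway, is on the plus strand at chr2:74413299-74444692, with its TSS at base 74425742. Its TSS peak was among the strongest of the 7 genes, with H3K27ac scores of 15.3 and 13.3 in HCT15-Pa and 16.3 and 17.9 in HCT15-FR. These lay between the percentiles 96 and 97.8 of their libraries. The covered length overlapped between the lines in both marks, with 928, 997, 1235 and 978 bp for H3K23su and 1227, 1204, 1204 and 1276 bp for H3K27ac in the library order used above. Taking the TSS of any protein-coding transcript, the lines were apart, with mean differences of 836.5 bp for H3K23su and 861 bp for H3K27ac, against 144 bp and 24.5 bp at the main TSS. With the TSS at the 5′ end of the gene record they were apart for H3K27ac, by 165.5 bp on average. That gap lay at the edge of the window. HCT15-FR peaks starting at bases 74415270 and 74414999 reached into it. The HCT15-Pa replicate 1 peak, starting at base 74415550, lay just outside it. The 245 bases up to the annotated untranslated exon, chr2:74425492-74425736, starting 250 bases upstream of the TSS, held no GC box, and the motif CCAAT occurred 2 times (not in capitals).
MTHFD2 promoter: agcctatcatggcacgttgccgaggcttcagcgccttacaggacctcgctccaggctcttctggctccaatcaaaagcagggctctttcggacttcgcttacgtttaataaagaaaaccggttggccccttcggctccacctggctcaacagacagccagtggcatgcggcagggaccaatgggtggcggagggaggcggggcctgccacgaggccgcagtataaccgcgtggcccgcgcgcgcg

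The body of MTHFD2 was covered more widely in HCT15-FR in both marks. H3K23su peaks covered 790 and 748 bp in HCT15-Pa and 1274 and 2052 bp in HCT15-FR, a ratio of 2.16 (exact permutation p = 0.333, n = 2 per line). H3K27ac peaks covered 1191 and 1254 bp in HCT15-Pa and 1936 and 2040 bp in HCT15-FR, a ratio of 1.63 (exact permutation p = 0.333, n = 2 per line). Wider cover of the body in both HCT15-FR libraries was found in 40.6% of genes for H3K23su and in 45.9% for H3K27ac, of those covered there in all 4 libraries, and narrower cover in 13.7% and 12.6%. Wider cover in both marks was found in 28.7% of the 6999 genes covered there in all 8 libraries, and the median ratio over genes was 1.11 for H3K23su and 1.16 for H3K27ac.

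Most of the body cover of each library, though not all of the H3K23su widening, came from an intronic region that every library shared. At chr2:74432491-74433661, 7334 bp downstream of the TSS, H3K23su covered 425 and 513 bp in HCT15-Pa and 798 and 1171 bp in HCT15-FR, with scores of 3.71, 5.5, 6.79 and 6.11. At the overlapping H3K27ac region, chr2:74432481-74433911, 1025 and 666 bp were covered in HCT15-Pa and 1421 and 1303 bp in HCT15-FR, with scores of 4.95, 6.52, 9.36 and 7.81. The resistant libraries were above the parental libraries in width and in score in each mark. As a percentile of its own library, however, the H3K23su score overlapped between the lines. It was 78.8 in HCT15-Pa replicate 2 and 78.6 in HCT15-FR replicate 2. A smaller H3K23su region close by, chr2:74431698-74432079, was Pa-only, with scores of 4.82 and 3.86.

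An FR-only H3K23su region was called at MTHFD2, upstream of the TSS, inside the gene record but outside the main transcript. It covered 476 and 881 bp in the HCT15-FR libraries, with scores of 6.18 and 4.51. These bases are part of the wider H3K23su body cover given above.

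For H3K27ac, 2 FR-only regions were called near MTHFD2. The stronger, chr2:74494319-74494913, lay 68874 bp downstream of the TSS in an intron of SLC4A5, a bicarbonate transporter gene, with scores of 5.01 and 5.48. The weaker, chr2:74473400-74474528, lay 48222 bp downstream in an intron of the same gene, with scores of 3.09 and 3.22, close to the lowest score of 2.9 in those lists. Cover of the MTHFD2 surroundings overlapped between the lines in both marks.

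SHMT1, the cytosolic serine hydroxymethyltransferase, is on the minus strand at chr17:18231174-18266877, with its TSS at base 18266864. H3K23su peaks at the TSS covered 774 and 963 bp in HCT15-Pa and 1226 and 1180 bp in HCT15-FR, a ratio of 1.39 (exact permutation p = 0.333, n = 2 per line). H3K27ac peaks covered 970 and 943 bp in HCT15-Pa and 1227 and 1108 bp in HCT15-FR, a ratio of 1.22 (exact permutation p = 0.333, n = 2 per line). Scaled to the total covered length of each library, the differences of 334.5 bp and 211 bp became 152.0 bp and 30.3 bp, and for H3K27ac the lines then overlapped. The direction was opposite to that at SHMT2, but a wider TSS peak in HCT15-FR was common. It was found in 45.8% of genes for H3K23su and 34.9% for H3K27ac, and in both marks at once in 19% of genes with a TSS peak in all 8 libraries. The score percentiles overlapped between the lines in both marks, with values from 79.6 to 92.5 (H3K23su) and from 79.4 to 84.5 (H3K27ac).

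The 237 bases of the SHMT1 promoter outside annotated untranslated exons, chr17:18266878-18267114 on the minus strand, are shown because the peak at this start site widened in both marks, with GC boxes in capitals on either strand. The window of 250 bases upstream of the TSS held 2 GC boxes and 2 CCAAT motifs, and the CCAAT motifs are not in capitals.
SHMT1 promoter: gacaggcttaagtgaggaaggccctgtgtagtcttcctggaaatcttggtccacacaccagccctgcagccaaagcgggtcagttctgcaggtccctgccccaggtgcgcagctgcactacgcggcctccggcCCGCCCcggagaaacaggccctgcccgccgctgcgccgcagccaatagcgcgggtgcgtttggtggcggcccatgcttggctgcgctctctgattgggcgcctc

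In the SHMT1 body, peaks were small. H3K23su covered 200, 296, 317 and 0 bp and H3K27ac 196, 364, 488 and 293 bp. An FR-only H3K27ac region, chr17:18251386-18251678, lay in an intron 15332 bp downstream of the TSS, with low scores of 3.75 and 3.22. A Pa-only H3K23su region, chr17:18280947-18281644, lay upstream, at -14432 bp, at the start of EVPLL, with scores of 3.54 and 3.34.

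MTHFD1, the trifunctional cytosolic enzyme, is on the plus strand at chr14:64854749-64930175, with its TSS at base 64855071. It had the widest H3K23su TSS cover of the 7 genes, with a mean of 1930.2 ± 160.1 bp (SD, n = 4 libraries), more than 96.6% of genes. The H3K23su cover was 1822 and 1923 bp in HCT15-Pa and 2159 and 1817 bp in HCT15-FR, and these overlapped. The H3K27ac cover was 1773 and 1625 bp in HCT15-Pa and 2072 and 1828 bp in HCT15-FR, with no overlap and a ratio of 1.15 (exact permutation p = 0.333, n = 2 per line). MTHFD1 was the only member with an E-box, CACGTG, within 250 bases upstream of the TSS, a motif that 7.86% of all promoters held. It starts at -15 from the TSS and is in capitals in the 26 bases at chr14:64855045-64855070.
MTHFD1 E-box: cagtccctaagCACGTGggttgggtt

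The MTHFD1 body held several shared regions. H3K23su covered 3328, 2127, 3766 and 3040 bp there and overlapped between the lines. H3K27ac covered 2536 and 3024 bp in HCT15-Pa and 3198 and 3510 bp in HCT15-FR, a ratio of 1.21 (exact permutation p = 0.333, n = 2 per line). The strongest region of the body, chr14:64904404-64905562, an intronic site 49912 bp downstream of the TSS, had H3K27ac scores of 12.7, 11.3, 14.3 and 12.9.

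SLC19A1, the reduced folate carrier, is on the minus strand at chr21:46913486-46993279, with the TSS of its main transcript at base 46962354. Its 3′ end overlaps COL18A1, a collagen gene on the other strand, so peaks there cannot be given to 1 gene. At the TSS, H3K27ac covered 1896 and 1692 bp in HCT15-Pa and 1689 and 1210 bp in HCT15-FR, a ratio of 0.808 (exact permutation p = 0.333, n = 2 per line). The groups were apart by only 3 bp. The H3K27ac percentile was 83.5 and 81.5 in HCT15-Pa and 73.4 and 71.5 in HCT15-FR. Lower length and percentile together were found in 3.32% of genes for H3K27ac. H3K23su at the TSS overlapped between the lines, with 925, 1387, 753 and 1257 bp. With the TSS of any protein-coding transcript the lines were apart for H3K23su, with a mean difference of -893 bp.

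In the SLC19A1 body, mean cover was lower in HCT15-FR for H3K23su and higher for H3K27ac. H3K23su covered 3438 and 3456 bp in HCT15-Pa and 3437 and 2270 bp in HCT15-FR, while H3K27ac covered 3378 and 2155 bp in HCT15-Pa and 3432 and 4150 bp in HCT15-FR. The resistant and parental libraries were again apart by only 1 bp for H3K23su, and the lower mean rested on HCT15-FR replicate 2. The best score moved the other way, from 4.68 and 5.23 to 9.48 and 7.1 for H3K23su and from 11.6 and 7.92 to 6.52 and 7.18 for H3K27ac. The higher H3K23su score came from chr21:46920138-46920841, a shared region 41864 bp downstream of the TSS in an intron of COL18A1, with 3.58 and 4.5 in HCT15-Pa and 9.48 and 7.1 in HCT15-FR. The H3K27ac score fell at chr21:46975595-46976160, at -13524 bp from the TSS within the gene record, from 11.6 and 7.92 to 6.52 and 6.73. At that site H3K23su was FR-only, as chr21:46975560-46976095, with scores of 3.72 and 3.52.

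The surroundings of SLC19A1 were covered more widely in HCT15-FR in both marks. H3K23su covered 2243 and 2371 bp in HCT15-Pa and 4185 and 4147 bp in HCT15-FR, a ratio of 1.81 (exact permutation p = 0.333, n = 2 per line). H3K27ac covered 3279 and 2261 bp in HCT15-Pa and 4732 and 4019 bp in HCT15-FR, a ratio of 1.58 (exact permutation p = 0.333, n = 2 per line). Wider cover in both HCT15-FR libraries was found in 50.9% of genes for H3K23su and in 48.2% for H3K27ac, of those covered there in all 4 libraries, and narrower H3K27ac cover in 12.1%. Wider cover in both marks was found in 34.8% of the 15271 genes covered there in all 8 libraries.

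Of the member loci, only the SLC19A1 locus held regions that were FR-only in both marks, 2 of them, both in introns of COL18A1. The first was chr21:46867821-46869686 for H3K23su, with 1866 and 1223 bp covered and scores of 4.81 and 4.32, and chr21:46868534-46869686 for H3K27ac, with 971 and 928 bp and scores of 4.3 and 4.09. The second was chr21:46889173-46890102 for H3K23su, with scores of 3.54 and 4.05, and chr21:46889640-46890167 for H3K27ac, with scores of 6.78 and 4.93. These sites lay 93600 and 72716 bp downstream of the SLC19A1 TSS by the midpoints of the H3K23su regions, and 43674 and 64558 bp from the COL18A1 TSS. The central 300 bases of the first, chr21:46868604-46868903 on the plus strand, are shown as the widest such gain. They held 1 E-box and 1 GC box, both in capitals, where E-boxes occurred in 4.81% and GC boxes in 16% of all H3K23su regions at this length.
COL18A1 region: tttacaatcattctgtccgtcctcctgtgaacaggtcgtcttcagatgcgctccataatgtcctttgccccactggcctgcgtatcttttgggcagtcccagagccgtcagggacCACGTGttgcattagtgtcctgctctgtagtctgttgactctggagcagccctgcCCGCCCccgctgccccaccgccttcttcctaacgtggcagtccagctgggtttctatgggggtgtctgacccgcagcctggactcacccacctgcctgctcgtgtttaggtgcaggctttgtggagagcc

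Pa-only regions also occurred at SLC19A1. For H3K23su, chr21:46932577-46934118, 29006 bp downstream of the TSS where untranslated exons of SLC19A1 and COL18A1 overlap, covered 1250 and 522 bp with scores of 4.14 and 4.9. For H3K27ac, chr21:46935712-46936257, at a coding exon 26369 bp downstream of the TSS, covered 280 and 315 bp with scores of 4.37 and 3.83.

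FPGS, the folylpolyglutamate synthase, is on the plus strand at chr9:130556876-130576606, with its TSS at base 130565161. H3K27ac cover at the TSS was 1667 and 1662 bp in HCT15-Pa and 1744 and 1682 bp in HCT15-FR, apart but with a ratio of only 1.03 (exact permutation p = 0.333, n = 2 per line). H3K23su cover overlapped, with 1776, 1677, 1693 and 1373 bp. The promoter was rich in GC boxes, with 8 within 250 bases upstream of the TSS. Body peaks were small or missing, with 449, 0, 287 and 408 bp for H3K23su and 287, 0, 0 and 0 bp for H3K27ac.

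In the FPGS surroundings, H3K23su covered 3633 and 3476 bp in HCT15-Pa and 2514 and 2479 bp in HCT15-FR, a ratio of 0.702 (exact permutation p = 0.333, n = 2 per line). Lower H3K23su cover of the surroundings in both HCT15-FR libraries was found in 11.1% of genes covered there in all 4 libraries. H3K27ac there overlapped between the lines, with 4615, 4253, 5995 and 3305 bp. A Pa-only H3K23su region, chr9:130578893-130579475, lay in an intron of ENG 14023 bp downstream of the TSS with scores of 3.96 and 3.68, and H3K27ac was called there in all 4 libraries. An FR-only H3K27ac region, chr9:130513691-130513859, lay far upstream in an intron of SH2D3C, at -51386 bp from the TSS, with 146 bp covered in each HCT15-FR library, the smallest peak width in the lists, and scores of 4.69 and 4.27.

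GGH, the gamma-glutamyl hydrolase, is on the minus strand at chr8:63927440-63951966, with its TSS at base 63951365. Its TSS peak lost score in both marks. H3K23su scores were 6.55 and 6.42 in HCT15-Pa and 5.37 and 5.75 in HCT15-FR, and H3K27ac scores were 9.52 and 9.95 in HCT15-Pa and 6.69 and 5.98 in HCT15-FR. As percentiles they were 90.1, 88.7, 68.3 and 74 for H3K23su and 90.6, 91, 72.3 and 66.5 for H3K27ac, with no overlap in either mark (exact permutation p = 0.333, n = 2 per line). A lower percentile in both HCT15-FR libraries was found in 15.6% of genes for H3K23su and in 28.2% for H3K27ac, and in both marks in 6.04% of genes with a TSS peak in all 8 libraries. The mean percentile fell by 18.2 points for H3K23su and fell by 21.4 points for H3K27ac, and the fall was larger in 3.97% and 2.87% of genes.

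The length of the GGH peak moved less than its score. H3K23su covered 874 and 933 bp in HCT15-Pa and 841 and 873 bp in HCT15-FR, apart by 1 bp, and H3K27ac covered 1084, 1037, 1315 and 939 bp and overlapped. No peak of either mark was called in the rest of the GGH body. A Pa-only region stood near the start of the neighbouring gene TTPA in both marks. It was chr8:63998076-63998413 for H3K23su, with scores of 4.46 and 4.7, and chr8:63998287-63998792 for H3K27ac, with scores of 4.77 and 4.05. Between the marks, GGH was the only member whose covered TSS lengths did not overlap, with 880.2 ± 38.4 bp for H3K23su and 1093.8 ± 159.4 bp for H3K27ac (SD, n = 4 libraries each, exact permutation p = 0.0286, not corrected for the 7 genes compared). Such a gap, in the same direction, was found in 11.2% of genes with a TSS peak in all 8 libraries, and the reverse in 2.05%. The gap was 6 bp, between 933 and 939 bp, and broad peaks were called for H3K27ac only. The permutation did not keep libraries within their line.

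**Figure D2:**
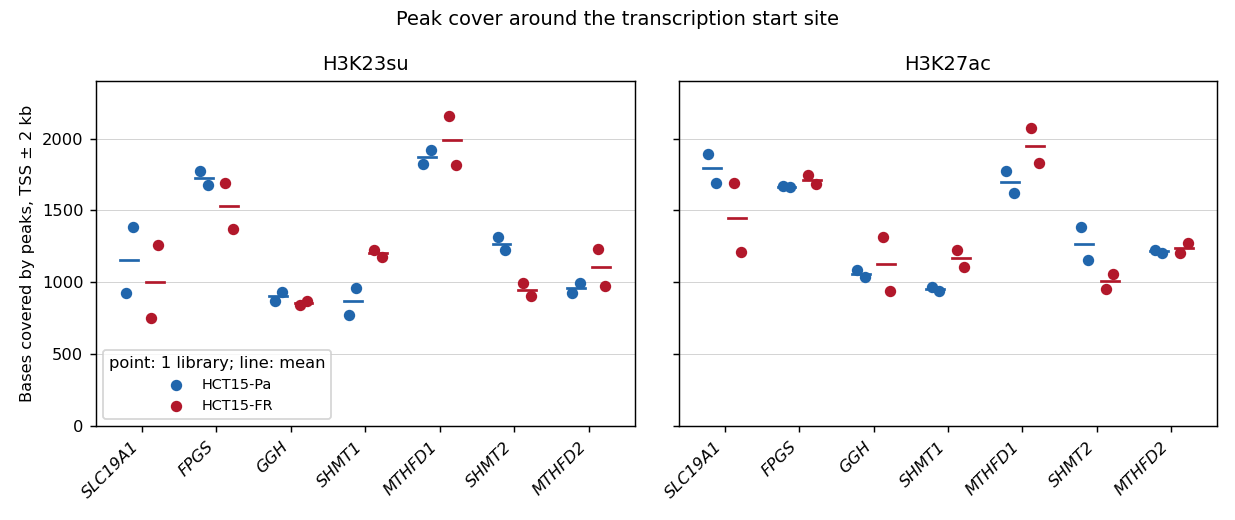
Bases covered by peaks within 2 kb of the TSS for each gene and library (points) with the mean of each line (bars), H3K23su left and H3K27ac right. SHMT2 points of HCT15-FR lie below and SHMT1 points above those of HCT15-Pa in both marks.

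**Figure D3:**
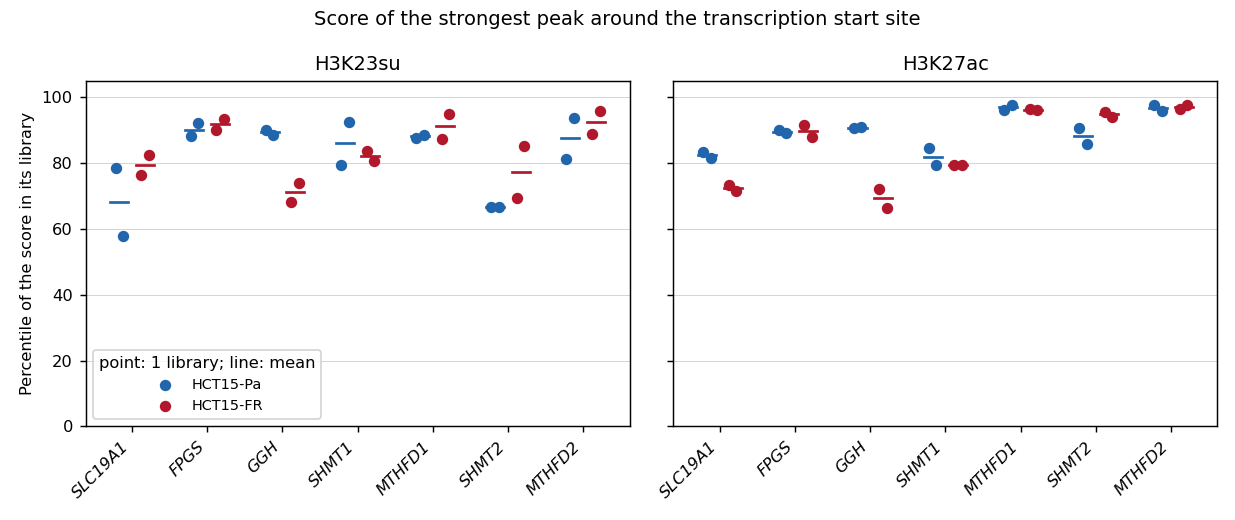
Percentile, within its own library, of the score of the strongest peak within 2 kb of the TSS, 1 point per library with the mean of each line as a bar. GGH falls and SHMT2 rises from HCT15-Pa to HCT15-FR in both marks, and for the other genes the lines overlap except SLC19A1 for H3K27ac.

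Covered TSS length of H3K23su was higher in both HCT15-FR libraries in 1 member, SHMT1, lower in 2, SHMT2 and GGH, and overlapped in 4. For H3K27ac it was higher in 3, FPGS, SHMT1 and MTHFD1, lower in 2, SLC19A1 and SHMT2, and overlapped in 2. Over all genes with a TSS peak in all 4 libraries, 45.8% were higher and 6.34% lower for H3K23su, and 34.9% and 10.9% for H3K27ac. The median difference of the members was -46.5 bp for H3K23su and 48.5 bp for H3K27ac, against 162.5 bp and 71 bp over all genes with a TSS peak in all 4 libraries. Summed over the 7 genes, H3K23su TSS cover was 8412 and 9104 bp in HCT15-Pa and 8900 and 8381 bp in HCT15-FR (exact permutation p = 0.667, n = 2 per line). H3K27ac TSS cover was 9999 and 9320 bp in HCT15-Pa and 10208 and 9099 bp in HCT15-FR (exact permutation p = 1, n = 2 per line). The sums of the lines overlapped in each mark. Scaled to the total covered length of each library, the differences of -117.5 bp and -6 bp became -1669.9 bp for H3K23su and -1661.1 bp for H3K27ac. The lines were then apart in each mark. Total covered length was 1.19-fold higher in HCT15-FR in each mark. TSS cover summed over all genes had a ratio of 1.2 for H3K23su but only 1.06 for H3K27ac. Scaling therefore lowers H3K27ac TSS cover in HCT15-FR over all genes too, so that fall is not particular to the members. Between the marks the sums were 8699.2 ± 359.6 bp for H3K23su and 9656.5 ± 530.9 bp for H3K27ac (SD, n = 4, exact permutation p = 0.0571). The marks were called in different modes, with broad peaks for H3K27ac only, so a difference in length between the marks cannot be told apart from the calling. The highest H3K23su library lay above the lowest H3K27ac library.

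Summed gene body cover of H3K27ac was 7588 and 6797 bp in HCT15-Pa and 9054 and 9993 bp in HCT15-FR, a ratio of 1.32 (exact permutation p = 0.333, n = 2 per line). Over all genes the summed ratio was 1.3. The sum turned to a difference of -164 bp when the stronger 50% of each list was used. Body cover of H3K23su was 8205, 6627, 9081 and 7770 bp and overlapped between the lines (exact permutation p = 0.667, n = 2 per line). Cover of the surroundings was 19993, 22169, 21613 and 21896 bp for H3K23su, which overlapped (exact permutation p = 1, n = 2 per line). For H3K27ac it was 23443 and 23764 bp in HCT15-Pa and 29344 and 24713 bp in HCT15-FR, a ratio of 1.15 (exact permutation p = 0.333, n = 2 per line), against 1.17 over all genes. The mean difference of 3425 bp was 133.5 bp within 20 kb and 2165 bp with an equal number of peaks per list, where the lines overlapped, and it was 1109.5 bp without HCT15-FR replicate 1 and 5740.5 bp without HCT15-FR replicate 2.

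The member loci held 97 merged H3K23su regions, of which 6 (6.19%) were FR-only, 8 (8.25%) Pa-only and 32 (33%) present in all 4 libraries, while 40 (41.2%) were called in a single library. Over all H3K23su regions these shares were 7.95%, 5.01%, 23.9% and 46.8%. For H3K27ac, 8 (7.08%) of 113 regions were FR-only, 5 (4.42%) Pa-only 33 (29.2%) present in all 4 libraries and 45 (39.8%) in a single library, against 9.08%, 4.53%, 25.2% and 46.1% over all regions. Of the FR-only H3K23su regions, 4 were at SLC19A1. A Pa-only H3K23su region was called at every member, with 2 at SLC19A1 and 1 at each of the others.

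The promoters of the 7 genes shared few of the motifs searched, on both strands, in the 250 bases upstream of the TSS. The GC box was in 5 of 7, against 58.6% of all promoters, and CCAAT in 4 of 7, against 34.1%. The AP-1 motif TGACTCA (3.06% of promoters), the cyclic AMP response motif TGACGTCA (2.4%) and the amino acid response motif TGATGNAA (2.18%) were in 0 of 7. TGACTCA was also in none of the central 300 bases of the 12 regions with the highest scores among those present in only 1 line, a motif found in 10.3% of all H3K23su and 10.9% of all H3K27ac regions at this length.

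Of 32 other genes of folate and carbon-unit metabolism, 25 had an H3K23su TSS peak in all 4 libraries and 24 an H3K27ac peak, against 54.7% and 59% of all genes. Covered H3K23su length was higher in both HCT15-FR libraries in 10 of the 25 and lower in 0, against 45.8% and 6.34% of all genes with such a peak. Covered H3K27ac length was higher in 6 of the 24 and lower in 2, with 706 and 760 bp in HCT15-Pa and 356 and 366 bp in HCT15-FR at the folate receptor gene FOLR1. Over all genes these shares were 34.9% and 10.9%. SLC46A1, the proton-coupled folate transporter, covered 1566 and 736 bp in HCT15-Pa and 1894 and 1676 bp in HCT15-FR for H3K23su, and 1323 and 958 bp against 1706 and 1454 bp for H3K27ac. TYMS, thymidylate synthase, overlapped in both marks, with 1564 to 1649 bp under H3K23su peaks and 1533 to 1654 bp under H3K27ac peaks. Of the serine synthesis genes, PHGDH and PSPH were wider in HCT15-FR for H3K23su, and PSAT1 for H3K27ac. MAT1A was the only listed gene with a TSS peak in both libraries of 1 line and neither of the other, with H3K27ac cover of 418 and 545 bp in HCT15-Pa and no peak in HCT15-FR.

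**Figure D4:**
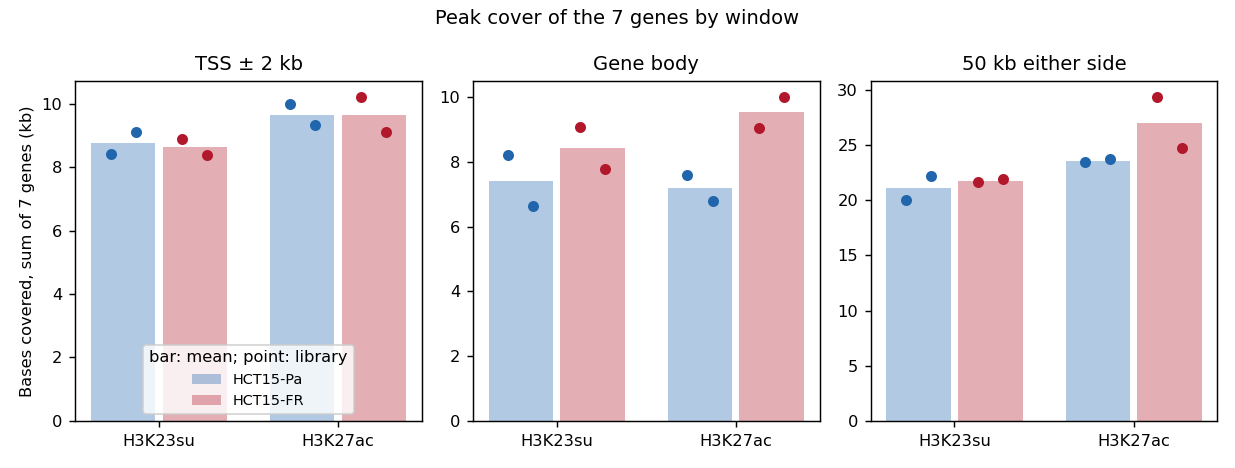
Bases covered by peaks, summed over the 7 genes (kb), within 2 kb of the TSS, in the gene body and within 50 kb on either side, with bars for the mean of each line and points for libraries. The lines overlap at the TSS in both marks and are apart for H3K27ac in the body and the surroundings.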

How the data were processed

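The authors profiled H3K23su and H3K27ac by CUT&Tag in 8 libraries, aligned the reads to hg19 with Bowtie2, filtered them with SAMtools and called peaks in each library with MACS2. HOMER 4.10 is named in the submitters' processing notes. Replicates were not pooled. The deposited lists give chromosome, start, end, name and a score, read from its values and the peak caller as −log10 of the MACS2 p-value. H3K27ac was called with the broad option per the methods.

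The members, gene lists and tests were chosen with earlier results of these data known. Genes and transcripts came from GENCODE release 44 on GRCh37, the build of the lists, and the TSS was that of the canonical transcript. Covered length is the number of bases under peaks in a window, with an overlap of 1 bp counted. Score percentiles were taken within each list. Peaks of the 4 libraries of a mark were merged into regions. Regions named in full were the strongest 6 per mark, by the weaker of their percentiles, among 27 found in only 1 line; other regions named were chosen after their values were seen. Differences were tested by two-sided exact permutation, which allows p of 0.333 or above for 2 against 2 libraries and 0.0286 or above for 4 against 4. Tests between the marks permuted libraries without regard to line. The method was tested on simulated peaks. Depth is unknown from the lists. Python 3.11.15, numpy 2.4.6, pandas 2.3.3 and scipy 1.17.1 were used. Sequences were read from the GRCh37 genome, and those of annotated untranslated exons and some others are not reported here. Alternatives covered peak filters, TSS definitions, window sizes, assignment by midpoint, scaling to total covered length, the replicate block and leaving out each library.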

Additional observations from a re-analysis of the deposited data

Results flagged for a closer look

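At the SLC19A1 gene body, both HCT15-FR libraries lay on one side of both HCT15-Pa libraries for H3K23su and on the other side for H3K27ac. From HCT15-Pa to HCT15-FR, covered length changed by -593.5 bp for H3K23su and by 1024.5 bp for H3K27ac. The percentile of the strongest peak changed by 24.1 points for H3K23su and by -16.4 points for H3K27ac. The difference between the marks was not tested. For the covered length of H3K23su the lines were apart by 1 bp, and the change rested on HCT15-FR replicate 2, with 2270 bp against 3437 bp in HCT15-FR replicate 1 and 3438 and 3456 bp in HCT15-Pa.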

How the results depend on the processing

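No test between the lines could pass 0.05, so only directions can be compared. Covered TSS length kept its direction in both marks for SHMT2 and SHMT1 and for H3K23su at GGH and FPGS under all 13 alternatives, and the score percentile of SHMT2 and GGH kept its direction under all 8, which were chosen after seeing the data. Direction alone was kept: scaling left SHMT1 H3K27ac at 30.3 bp, with overlapping lines. The score percentile of SLC19A1 for H3K27ac turned to 12 points with the TSS at the 5′ end of the gene record. Only HCT15-FR replicate 1 had a peak there, at percentile 24, and a missing peak was counted as 0. A missing peak may lie just under the calling threshold, and scores depend on depth, which the lists do not give. The cause of each change below was not tested.

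The summed TSS difference for H3K23su, -117.5 bp, became 2 bp with the stronger 50% of each list and 171 bp with the TSS at the 5′ end of the gene record, and ranged from -463.5 to 228.5 bp when 1 library was left out. That for H3K27ac, -6 bp, became 566 bp with that TSS and 801 bp with any protein-coding TSS, and ranged from -560.5 to 548.5 bp. It was positive without HCT15-FR replicate 2 (548.5 bp) and without HCT15-Pa replicate 1 (333.5 bp). For H3K23su it was positive without HCT15-FR replicate 2 (142 bp) and HCT15-Pa replicate 2 (228.5 bp). Scaled to total covered length, body cover of H3K23su turned to -388.8 bp and cover of the surroundings to -3136.9 bp for H3K23su and -896.8 bp for H3K27ac, and body cover of H3K27ac turned to -164 bp with the stronger 50%. Surroundings of H3K23su turned to -1889 bp at 20 kb and to -414.5 bp without HCT15-Pa replicate 1, within a range of -414.5 to 1761.5 bp. The difference between the marks, 957.2 bp, passed 0.05 within 1 kb (1326.8 bp, exact permutation p = 0.0286) and without HCT15-FR H3K27ac replicate 2 (1143.1 bp). It was 337.5 bp (exact p = 0.371) with the TSS at the 5′ end of the gene record and 528.5 bp (exact p = 0.286) with any protein-coding TSS, and had exact p = 0.257 when scaled and 0.125 with the replicate block. Leaving out 1 library gave 773.4 to 1143.1 bp.

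Of single genes, SLC19A1 H3K23su turned to 101 bp without HCT15-FR replicate 1 and to 80 bp without HCT15-Pa replicate 2 (range -403 to 101 bp), and SLC19A1 H3K27ac to 310.5 bp with the TSS at the 5′ end of the gene record. In that window only HCT15-FR replicate 1 had an H3K27ac peak, of 621 bp. FPGS H3K27ac turned to -175.5 bp with the TSS at the 5′ end of its record, where only HCT15-Pa replicate 1 had peaks. It turned to -22.5 bp within 1 kb and -241.4 bp when scaled. GGH H3K27ac turned to -121.5 bp without HCT15-FR replicate 1 (range -121.5 to 254.5 bp) and -120.2 bp when scaled. MTHFD1 H3K23su turned to -55.5 bp without HCT15-FR replicate 1 (range -55.5 to 286.5 bp). Scaling turned MTHFD1 to -228.5 bp for H3K23su and -59.7 bp for H3K27ac, and MTHFD2 to -40 bp and -186.4 bp. MTHFD2 H3K27ac turned to -11.5 bp without HCT15-FR replicate 2 (range -11.5 to 60.5 bp).

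The number of members with a TSS peak in all 4 libraries fell from 7 to 4 in each mark with the TSS at the 5′ end of the gene record. FR-only and Pa-only H3K23su regions numbered 2 and 1 with the stronger 50%, 3 FR-only regions remained at 20 kb, and 4 Pa-only regions when 50% of a region had to be covered. FR-only H3K27ac regions numbered 4 with the stronger 50%, 5 with an equal number of peaks and 2 at 20 kb. Pa-only H3K27ac regions numbered 3 at 20 kb and 8 with 50% covered. When 1 library was left out, H3K23su counts ranged from 7 to 16 (FR-only) and 8 to 23 (Pa-only), and H3K27ac counts from 12 to 25 and 7 to 17. A line is then judged by 1 library, which loosens the rule, so these ranges do not measure how stable the counts are.

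Within a mark, same-numbered libraries showed no shared deviation, which cannot show whether they were prepared together. The correlation of same-numbered deviations from the line means was -0.000377 for H3K23su and 0.000734 for H3K27ac. With the replicate block the regions present in 1 member of a same-numbered pair averaged 17.5 (FR-only) and 22 (Pa-only) for H3K23su and 28.5 and 19.5 for H3K27ac, and no other call changed.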
